A study of Homo sapiens with 30 samples.

Results

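The genes described here are 10 enzymes and enzyme subunits of glycosylation, ST6GALNAC1, ST6GAL1, CSGALNACT1, GCNT1, GCNT2, GALNT7, UAP1, PGM3, GNPNAT1 and TUSC3, chosen by symbol from the 23710 gene symbols with read counts. They were chosen with earlier results of these data known. All 10 had counts and FPKM (a fragment level corrected for the length of the transcript and the depth of the library), and their levels were followed over 10 conditions of 3 replicates each, 30 samples in all. V16D is a castration-resistant line derived from LNCaP prostate cancer cells, and MR49F is an enzalutamide-resistant derivative of this lineage. Each is a single cell line. Both lines in full serum received vehicle or 10 µM enzalutamide, an antiandrogen, for 24 hours after a period without the drug. In routine culture MR49F was maintained with 10 µM enzalutamide, so the lines differed in earlier exposure to it. MR49F cells were also held for 72 hours in charcoal-stripped serum, which lacks most steroids, and then received vehicle, 10 µM enzalutamide, 1 nM dihydrotestosterone (DHT), 500 nM JQ-1, or JQ-1 together with either enzalutamide or DHT, for 24 hours. JQ-1 displaces BET bromodomain proteins from acetylated histones. Full and stripped serum were separate experiments, so levels in them are set side by side without a test.

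Glycans are built in the endoplasmic reticulum and Golgi by transferases that add activated sugars to proteins and lipids. UDP-GlcNAc, the activated form of N-acetylglucosamine, is made from fructose-6-phosphate by the hexosamine pathway, in which GNPNAT1 acetylates glucosamine-6-phosphate, PGM3 moves the phosphate and UAP1 joins the sugar to UDP. GALNT7 adds N-acetylgalactosamine to proteins that already carry it, GCNT1 builds the branched core 2 O-glycan, and ST6GALNAC1 caps the first O-linked sugar with sialic acid, giving the sialyl-Tn antigen. ST6GAL1 adds sialic acid to the ends of N-glycans, GCNT2 makes the branches of the I blood group antigen, CSGALNACT1 starts chondroitin sulfate chains and TUSC3 is a subunit of the oligosaccharyltransferase that transfers N-glycans. Secretory glycosylation is among the functions that androgens control in prostate cells.

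On GRCh37 the O-glycan genes lie at chr17:74620843-74639868 for ST6GALNAC1, chr9:79034766-79266119 for GCNT1 and chr4:174089962-174245118 for GALNT7. ST6GAL1 is at chr3:186648114-186796341 and GCNT2 at chr6:10492456-10629601. The UDP-GlcNAc genes are UAP1 at chr1:162531512-162571030, PGM3 at chr6:83857043-83903655 and GNPNAT1 at chr14:53241911-53258386. These spans cover the exons and introns of each gene.

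Promoter windows, from 250 bases before to 50 after a transcription start, were taken from RefSeq on GRCh38.p14, which held 16 windows for 7 of the genes, and ST6GALNAC1, CSGALNACT1 and TUSC3 had none. The windows below set UAP1 and PGM3 beside GNPNAT1 and GALNT7 by their FPKM with DHT and JQ-1. Relative to DHT alone, UAP1 and PGM3 stood at 0.86 and 2.44, and GNPNAT1 and GALNT7 at 0.40 and 0.35. The DHT fold of GALNT7 was nonetheless 1.95 under JQ-1 and 1.94 without it. UAP1 and PGM3 had further windows that are not shown. The windows shown lie at chr1:162561281-162561580 (plus strand), chr6:83193851-83194150 (minus), chr14:52791558-52791857 (minus) and chr4:173168561-173168860 (plus), and capitals mark the CCAAT box and the GC box GGGCGG on either strand.
UAP1: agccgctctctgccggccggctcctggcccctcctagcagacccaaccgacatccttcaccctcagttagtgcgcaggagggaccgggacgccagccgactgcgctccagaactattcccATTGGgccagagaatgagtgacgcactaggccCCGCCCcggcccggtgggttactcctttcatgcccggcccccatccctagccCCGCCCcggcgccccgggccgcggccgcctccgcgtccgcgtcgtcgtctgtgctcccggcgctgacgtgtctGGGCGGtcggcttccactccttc
PGM3: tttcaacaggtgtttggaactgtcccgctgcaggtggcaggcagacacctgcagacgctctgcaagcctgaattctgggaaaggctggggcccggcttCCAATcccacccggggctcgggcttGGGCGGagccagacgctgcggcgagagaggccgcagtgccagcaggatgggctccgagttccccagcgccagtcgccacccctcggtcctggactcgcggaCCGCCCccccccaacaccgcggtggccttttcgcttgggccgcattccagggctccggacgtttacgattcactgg
GNPNAT1: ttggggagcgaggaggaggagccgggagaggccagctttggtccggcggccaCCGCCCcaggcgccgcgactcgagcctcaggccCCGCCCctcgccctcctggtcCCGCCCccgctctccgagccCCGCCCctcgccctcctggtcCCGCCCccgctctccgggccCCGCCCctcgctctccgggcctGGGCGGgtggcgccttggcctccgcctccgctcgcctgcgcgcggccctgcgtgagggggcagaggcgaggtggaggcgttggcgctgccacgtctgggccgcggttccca
GALNT7: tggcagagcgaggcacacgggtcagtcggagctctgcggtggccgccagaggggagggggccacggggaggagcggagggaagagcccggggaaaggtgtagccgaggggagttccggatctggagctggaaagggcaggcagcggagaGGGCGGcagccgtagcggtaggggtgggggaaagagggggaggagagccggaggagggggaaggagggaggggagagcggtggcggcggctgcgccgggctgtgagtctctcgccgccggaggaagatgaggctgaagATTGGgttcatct
The CCAAT letters, on either strand, were present in the UAP1, PGM3 and GALNT7 windows shown and in 34.6% of 35116 windows genome-wide. The GALNT7 match lay 37 bases after the transcription start, and the UAP1 windows not shown held none. GC boxes numbered 7 in the GNPNAT1 window, 3 in that of UAP1, 2 in that of PGM3 and 1 in that of GALNT7, and 45.0% of all windows held at least 1. These matches describe letters only.

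Reads counted on genes numbered 13170504 to 21154962 per sample in full serum, 73.0% to 77.8% of counted reads, but 982130 to 1813262 in stripped serum, 5.13% to 7.66%. The libraries were strand-specific, and the strand setting of the counts was not given in the sources used here. Between the stripped and full serum vehicle groups of MR49F, the median log2 ratio of depth-scaled counts was -0.10 over 4235 genes whose exons overlap a gene on the opposite strand and -0.32 over 5304 genes without such overlap, whereas the FPKM ratios were -0.04 in both. Of these 10 genes, GCNT1, GALNT7, PGM3 and GNPNAT1 share exon bases with an opposite-strand gene. The libraries kept strand information, so counting with the opposite strand setting would leave few reads on genes and would give a gene the reads of its opposite-strand neighbour. Whether the stripped serum counts were made so was not tested, and their read numbers, ratios and exact intervals may not all stand for transcripts of the named gene. Stripped serum results are therefore given from counts (edgeR) beside log2(FPKM + 1) (limma). A gene was called at a Benjamini-Hochberg adjusted p of at most 0.05 over all genes tested. Of the luminal prostate markers, KRT8 ranged from 109 to 550 FPKM over the samples and HOXB13 from 54.6 to 166, while the androgen-induced KLK3 and KLK2 ranged from 6.45 to 1327 and from 1.01 to 229.8. The 8 leukocyte, fibroblast and endothelial markers summed to 1.99 to 8.04, with CDH5 at 0 in all samples. In bulk RNA, fewer cells and less RNA per cell cannot be told apart.

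**Figure D1:**
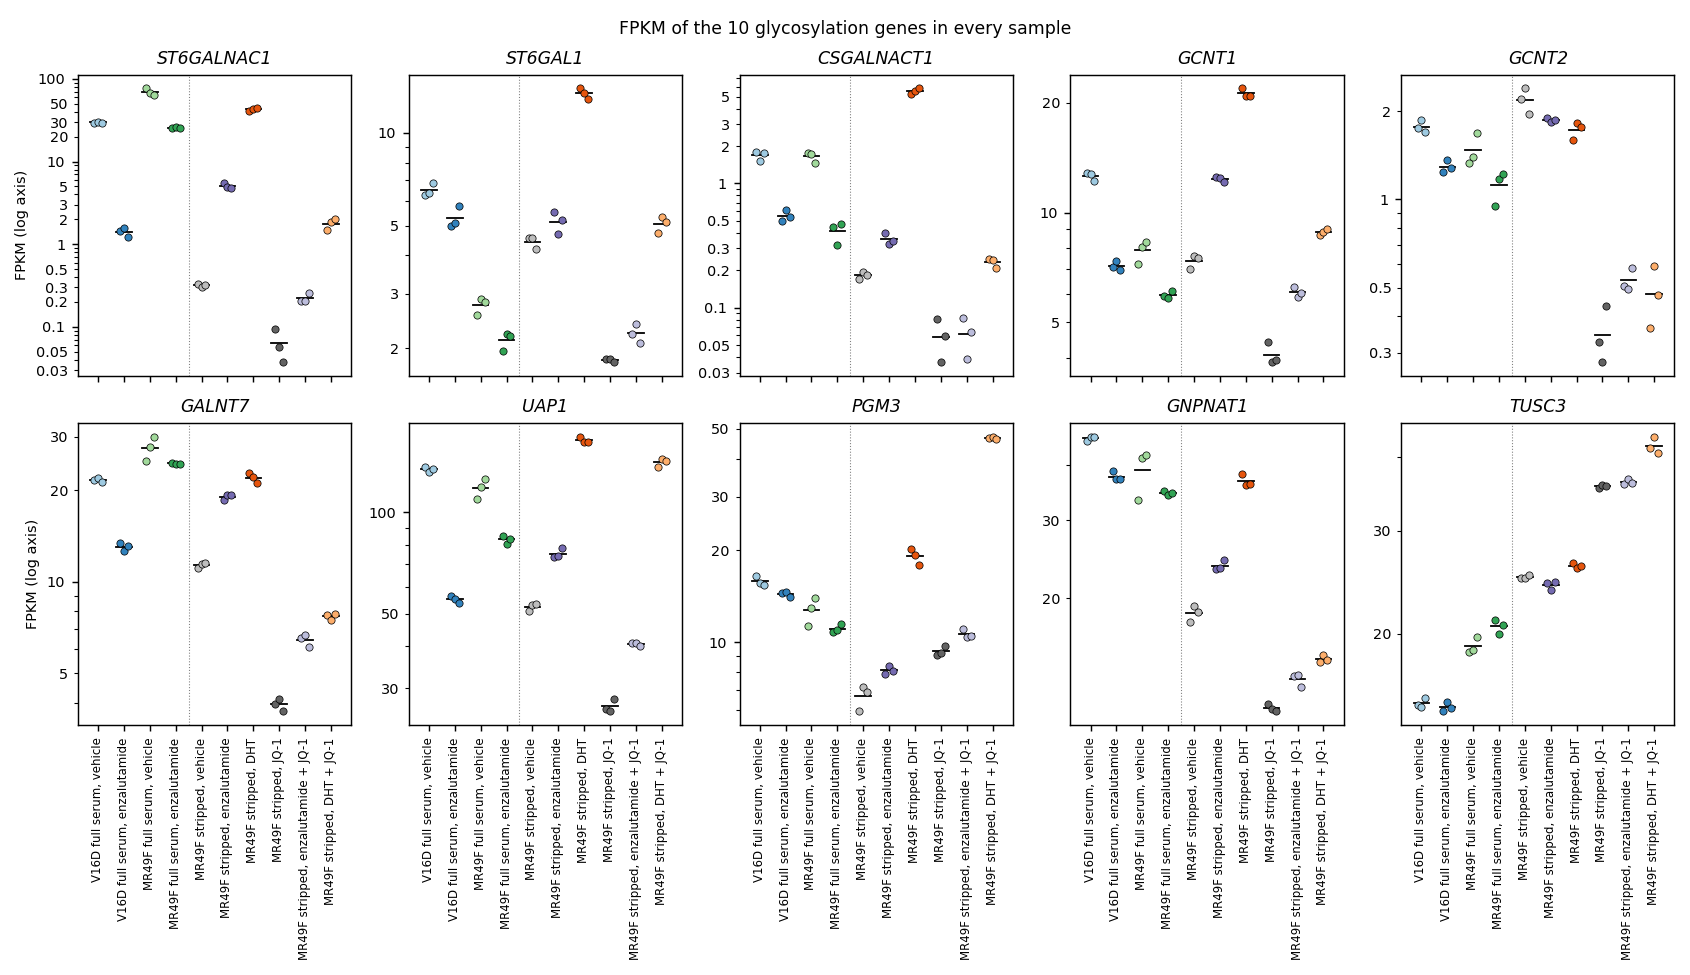
FPKM of each gene on a log axis with 1 point per sample, a bar at the mean of 3, and a dotted line between full and stripped serum. ST6GALNAC1 spans the widest range, from 0.06 FPKM on average with JQ-1 to 69.5 FPKM in untreated MR49F in full serum.

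In full serum, enzalutamide lowered 9 of the 10 genes in V16D and raised none. The share of all 14079 genes called in this comparison was 37.5%, and the median log2 fold change was -0.62 over the 10 genes and 0.00 over all genes. Because the set was chosen with earlier results of these data known, this contrast is a description only. ST6GALNAC1 stood at 29.7, 30.0 and 29.5 FPKM with vehicle and 1.46, 1.57 and 1.23 with enzalutamide, and the groups did not overlap. Its log2 fold change was -4.43 ± 0.07 (SE, n = 3 per group), a fall of 21.0-fold in FPKM. Every SE of an edgeR value was derived from its F statistic, and it can understate counting error where reads are few. UAP1 fell from 137, 131 and 134 FPKM to 56.4, 55.2 and 53.8, by 1.32 ± 0.03 on the log2 scale (SE, adjusted p = 3.96e-248 by edgeR and 4.5e-07 by limma on log2(FPKM + 1)). CSGALNACT1 was low throughout, at 1.79, 1.52 and 1.75 FPKM and then 0.501, 0.611 and 0.533, a log2 fold change of -1.64 ± 0.13 (adjusted p = 8.16e-31). GCNT1 and GALNT7, which act on O-glycans, changed by -0.86 and -0.76. The smaller changes were those of GCNT2 at -0.48, ST6GAL1 at -0.38, GNPNAT1 at -0.32 and PGM3 at -0.14, and the last lost its call without the first vehicle replicate (adjusted p = 0.0552). TUSC3, the N-glycan subunit, was at 15.1, 15 and 15.5 FPKM against 14.8, 15.3 and 14.9 and was not called (log2 fold change -0.06, adjusted p = 0.264).

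In MR49F in full serum 6 of the 10 genes fell with enzalutamide and none rose, where 8.48% of 13927 genes were called. ST6GALNAC1 was at 77.2, 67.2 and 64.0 FPKM with vehicle and 25.3, 26.2 and 25.2 with enzalutamide, a log2 fold change of -1.48 ± 0.08 (SE, n = 3 per group, adjusted p = 2.46e-06). CSGALNACT1 went from 1.75, 1.74 and 1.46 FPKM to 0.448, 0.319 and 0.475, a log2 fold change of -2.10 ± 0.16 (adjusted p = 2.22e-05). UAP1 was at 110, 119 and 125 FPKM and then 85.0, 80.7 and 83.5, and changed by -0.54. GCNT1, ST6GAL1 and GALNT7 changed by -0.44, -0.44 and -0.21, the last with an adjusted p of 0.0366 that rose above the threshold without any of 5 of the 6 samples, the first vehicle replicate being the exception. ST6GAL1 lost its call without the second vehicle replicate (adjusted p = 0.0516). GCNT2, GNPNAT1 and PGM3 were not called, and each was called without the first vehicle replicate, which raised the count to 9. That library stood apart, with a chi-square per degree of freedom over genes of 9.87 and 11.6 against the other vehicle replicates, which gave 2.25 between them, while the largest value of any other pair of replicates was 2.82. It also entered the comparison between lines, where 8 genes were called without it, and both interactions with full serum MR49F, where 4 and 8 were. In the serum interaction CSGALNACT1 fell below the FPKM filter without that library, and no member still tested lost its call. On the FPKM scale 9 of 10 genes were called in V16D (30.4% of all genes) and 4 of 10 in MR49F (4.60%). There CSGALNACT1 passed the FPKM filter only through the vehicle groups.

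Between untreated lines in full serum 9 of 10 genes differed, but so did 63.7% of 14013 genes. ST6GALNAC1, GALNT7 and TUSC3 were higher in MR49F, by 1.23, 0.35 and 0.32 on the log2 scale. ST6GAL1 was lower in MR49F by the most, at 2.57, 2.88 and 2.81 FPKM against 6.29, 6.36 and 6.85 in V16D (log2 fold change -1.18 ± 0.07, SE, n = 3 per group, adjusted p = 3.35e-08). GCNT1, PGM3, GCNT2, GNPNAT1 and UAP1 were lower by -0.68, -0.28, -0.27, -0.24 and -0.18. The GCNT2 call was lost without any of 4 of the 6 samples, with adjusted p up to 0.138 without the second MR49F vehicle replicate. CSGALNACT1 was not called (-0.06, adjusted p = 0.700).

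The size of the enzalutamide response differed between the lines for 4 of the 10 genes, ST6GALNAC1, UAP1, GALNT7 and GCNT1, in an interaction test that called 6.95% of 14471 genes. The fall was smaller in MR49F for all 4, by 2.93 ± 0.13 for ST6GALNAC1, 0.77 ± 0.05 for UAP1, 0.54 ± 0.06 for GALNT7 and 0.40 ± 0.07 for GCNT1 on the log2 scale (SE, adjusted p at most 0.000363). For CSGALNACT1 the difference was -0.46 ± 0.22 and was not called (adjusted p = 0.249).

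In stripped serum enzalutamide raised members that it had lowered in full serum. By counts 4 of 9 genes tested rose and none fell (7.26% of 11131 genes called), namely ST6GALNAC1, GCNT1, GALNT7 and UAP1, and CSGALNACT1 had too few reads to be tested. By FPKM 6 of 9 rose, where 38.7% of all genes were called. Only the enzalutamide group brought ST6GALNAC1 through the count and FPKM filters, so only a rise could be called for it. ST6GALNAC1 was at 0.328, 0.307 and 0.323 FPKM with vehicle and 5.56, 4.97 and 4.85 with enzalutamide, 16.1-fold higher, from 6 reads in all with vehicle and 157 with enzalutamide. The depth-adjusted count ratio was 25.9 with an exact 95% interval of 11.6 to 71.6, which covers counting error only. GALNT7 rose from 11.1, 11.4 and 11.5 FPKM to 18.5, 19.3 and 19.3 (counts, log2 fold change 0.77 ± 0.16, SE, adjusted p = 0.00594). GCNT1 rose from 6.997, 7.60 and 7.51 FPKM to 12.5, 12.5 and 12.1, and its call from counts was lost without the second enzalutamide replicate (adjusted p = 0.0728) or the second vehicle replicate (0.0619). UAP1 rose by 0.60 ± 0.12 (adjusted p = 0.00371). GNPNAT1 and PGM3 were called by FPKM only, at 0.34 and 0.25 on the log2(FPKM + 1) scale.

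**Figure D2:**
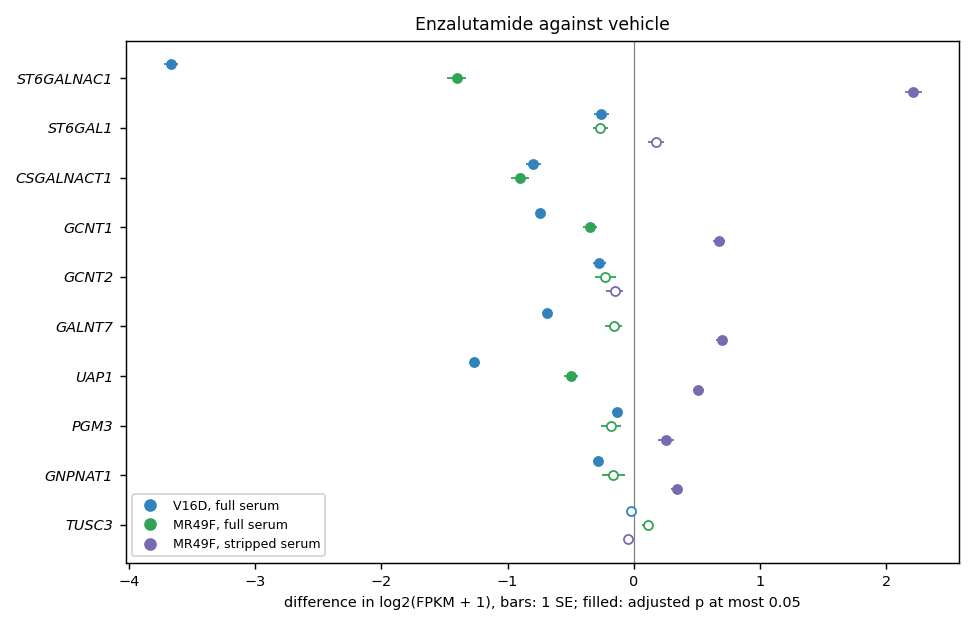
Enzalutamide minus vehicle in log2(FPKM + 1), fitted with limma, for V16D and MR49F in full serum and MR49F in stripped serum, with bars of 1 SE and filled points for calls. ST6GALNAC1 lies at -3.67 and -1.40 in full serum and at 2.21 in stripped serum, and CSGALNACT1 was not tested in stripped serum.

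The difference between sera in the MR49F response to enzalutamide was tested on log2(FPKM + 1) and was called for 9 of 10 genes, 8 higher in stripped serum, where 34.1% of 12981 genes were called. The interaction was largest for ST6GALNAC1 at 3.62 ± 0.09 (SE, adjusted p = 1.24e-09), and GCNT1, UAP1 and GALNT7 gave 1.03, 1.01 and 0.86. CSGALNACT1 gave 1.10 but passed the filter only through full serum vehicle, being at 0.182 and 0.357 FPKM on average in the stripped serum groups, where a pseudocount of 1 compresses its change. GNPNAT1, ST6GAL1 and PGM3 gave 0.50, 0.44 and 0.44. PGM3 was not called in this test from counts (0.23, adjusted p = 0.501). TUSC3 gave -0.15 and lost its call without any of 7 of the 12 samples, and was not called from counts (-0.10, adjusted p = 0.754). Because the sera were separate experiments, serum and experiment cannot be told apart.

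DHT in stripped serum raised 7 of 10 genes by counts and lowered none (37.5% of 11004 genes called), and by FPKM raised 8 and lowered 1 (72.1% called). The median log2 fold change from counts was 1.26 over the 10 genes and -0.01 over all genes, again a description of a set chosen with earlier results known. ST6GALNAC1 and CSGALNACT1 passed the count and FPKM filters only through the DHT group, so only a rise could be called for them. ST6GALNAC1 rose from the vehicle values above to 40.9, 43.0 and 44.8 FPKM, with 6 reads in vehicle and 1226 with DHT, a ratio of 203 (exact 95% interval 93.0 to 554). CSGALNACT1 rose from 0.169, 0.196 and 0.183 FPKM to 5.25, 5.58 and 5.83, a count ratio of 10.0 (5.39 to 20.7) where FPKM gave 30.4-fold. ST6GAL1, the N-glycan sialyltransferase, rose from 4.56, 4.55 and 4.19 FPKM to 13.9, 13.5 and 12.9 (counts, log2 fold change 1.94 ± 0.20, SE, adjusted p = 2.33e-08). GCNT1 reached 21.9, 20.9 and 20.9 FPKM and GALNT7 22.7, 22.0 and 21.1, with log2 fold changes of 1.49 and 1.03 from counts. UAP1 rose from 51.0, 53.0 and 53.4 FPKM to 167, 162 and 162 (1.70 ± 0.12, adjusted p = 1.89e-11) and GNPNAT1 from 17.7, 19.2 and 18.6 to 38.2, 36.1 and 36.1 (0.77 ± 0.13, adjusted p = 3.33e-05). GCNT2 went from 2.20, 2.40 and 1.96 FPKM to 1.59, 1.82 and 1.77, which was called lower by FPKM (-0.22, adjusted p = 0.0177) but not by counts (0.41, adjusted p = 0.339). TUSC3 was called by neither, at 0.18 from counts and 0.06 from FPKM.

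For PGM3 counts and FPKM parted. Its FPKM were 5.96, 7.13 and 6.89 with vehicle and 20.2, 19.4 and 17.9 with DHT (1.40 ± 0.07 on the log2(FPKM + 1) scale, SE, adjusted p = 3.80e-07). Its counts were 119 to 140 and 135 to 148 reads and gave 0.28 ± 0.14 (adjusted p = 0.125), called only without the third vehicle replicate (0.47, adjusted p = 0.00603). PGM3 shares 1546 of 22007 annotated exon bases with DOP1A, listed as DOPEY1 in the files, on the opposite strand. DOPEY1 was examined after the PGM3 values were seen. In stripped serum its CPM (counts scaled to the reads counted on genes) were 65.2 ± 10.95 (SD, n = 3) with vehicle, 137 ± 24.8 with DHT and 307 ± 19.0 with DHT and JQ-1, whereas its FPKM were 2.44, 1.99 and 3.54.

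**Figure D3:**
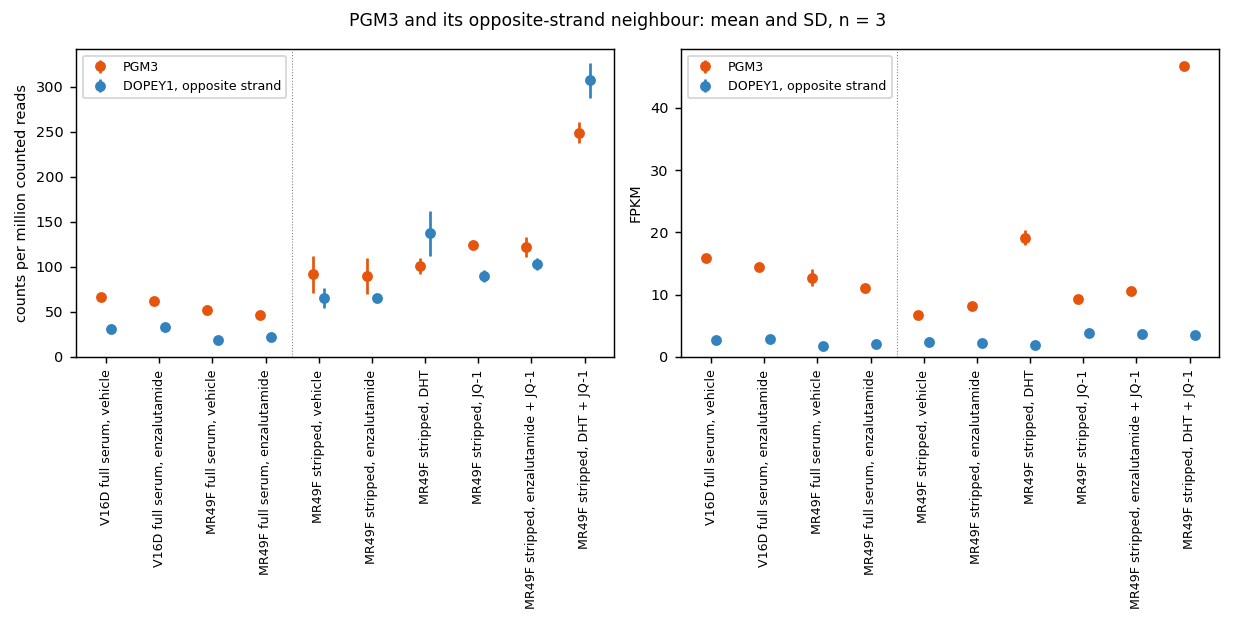
Mean and SD (n = 3) of CPM (left) and FPKM (right) of PGM3 and of DOPEY1, its neighbour on the opposite strand, in all 10 conditions. In stripped serum the DOPEY1 counts rise with DHT and further with DHT and JQ-1, while its FPKM stay between 1.99 and 3.85.

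Compared directly with enzalutamide, DHT gave higher levels of 6 genes and lower levels of none by counts (19.4% of 10916 genes called), and of 9 by FPKM (57.4% called). The differences from counts were 3.07 ± 0.13 for ST6GALNAC1 (SE, adjusted p = 1.08e-12), 2.63 for CSGALNACT1, 1.51 for ST6GAL1, 1.09 for UAP1, 0.69 for GCNT1 and 0.51 for GNPNAT1. CSGALNACT1 passed the filters only through the DHT group. GALNT7 was close under both ligands, at 18.5, 19.3 and 19.3 FPKM with enzalutamide and 22.7, 22.0 and 21.1 with DHT, and was called by FPKM (0.20, adjusted p = 0.00460) and not by counts (0.25, adjusted p = 0.230). TUSC3 was likewise called by FPKM only (0.11, adjusted p = 0.0414, against 0.245 and 0.333 from counts). PGM3 was called by FPKM at 1.14 and, from counts, only without the third enzalutamide replicate (0.45, adjusted p = 0.0155).

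JQ-1 alone changed all 8 genes that could be tested, 6 down and 2 up, where 46.6% of 11332 genes were called by counts. By FPKM 6 of 8 also fell and 2 rose (75.1% called). ST6GALNAC1 and CSGALNACT1 were not tested, with 6 and 11 reads in vehicle. GCNT2 fell from 2.20, 2.40 and 1.96 FPKM to 0.326, 0.278 and 0.432 (counts, -1.85 ± 0.45, SE, adjusted p = 0.000657). It passed the filters only through the vehicle group, so only a fall could be called. GALNT7 fell to 3.97, 4.12 and 3.75 FPKM, and UAP1 to 26.0, 25.7 and 27.9. GNPNAT1, GCNT1 and ST6GAL1 changed by -0.79, -0.70 and -0.85, and of these GCNT1 was not called without the first vehicle replicate (adjusted p = 0.0618), nor ST6GAL1 without any of 3 samples (highest adjusted p = 0.106, without the second vehicle replicate). TUSC3 rose from 24.9, 24.9 and 25.2 FPKM to 35.5, 35.9 and 35.8 (0.59 ± 0.12, adjusted p = 0.000111), and PGM3 rose to 9.11, 9.20 and 9.76 (0.48 ± 0.12, adjusted p = 0.000641).

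Added to enzalutamide, JQ-1 lowered 5 and raised 2 of 8 genes tested by counts (45.1% of 10863 genes called), and by FPKM lowered 7 and raised 2 of 9 (75.7% called). ST6GALNAC1 fell to 0.208, 0.204 and 0.259 FPKM, from 157 reads to 3, a ratio of 0.0230 (exact 95% interval 0.00469 to 0.0685). It passed the filters only through the enzalutamide group, so only a fall could be called. GALNT7, GCNT1, GNPNAT1 and UAP1 fell by 1.23, 1.12, 0.91 and 0.65 on the log2 scale. TUSC3 and PGM3 rose by 0.70 and 0.48. ST6GAL1 was not called by counts (-0.54, adjusted p = 0.111) and was called by FPKM at -0.92. GCNT2 was tested by FPKM only, at -0.90, passing that filter only through the enzalutamide group, and CSGALNACT1 was tested by neither.

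Added to DHT, JQ-1 lowered 7 and raised 2 of 10 genes by counts (54.7% of 10779 genes called), and lowered 8 and raised 2 by FPKM (78.8% called). ST6GALNAC1 went to 1.49, 1.84 and 2.01 FPKM, 24.1-fold below DHT alone (counts, -4.77 ± 0.15, SE, adjusted p = 2.89e-24). CSGALNACT1 went to 0.246, 0.243 and 0.207 FPKM with 6 reads in place of 111, a ratio of 0.0477 (exact 95% interval 0.0171 to 0.107). CSGALNACT1 and GCNT2 passed the filters only through the DHT group, so only a fall could be called for them. GCNT2 fell to 0.363, 0.593 and 0.473 FPKM, 3.6-fold below DHT alone. Counts gave a larger fall (-2.96 ± 0.49), from 6 reads in place of 43, a ratio of 0.123 (exact 95% interval 0.0428 to 0.290). GALNT7, ST6GAL1, GNPNAT1 and GCNT1 changed by -1.38, -1.25, -0.98 and -0.96. UAP1 stayed at 136, 144 and 142 FPKM against 167, 162 and 162 with DHT alone, which was called by FPKM (-0.21, adjusted p = 0.000910) and not by counts (-0.13, adjusted p = 0.243), where it was called without the second DHT replicate (-0.24, adjusted p = 0.0241). PGM3 rose to 46.8, 47.1 and 46.3 FPKM (counts, 1.30 ± 0.10, adjusted p = 1.29e-13), 2.44-fold above DHT alone, and TUSC3 to 41.5, 43.4 and 40.7 (0.85 ± 0.13, adjusted p = 7.61e-07).

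**Figure D4:**
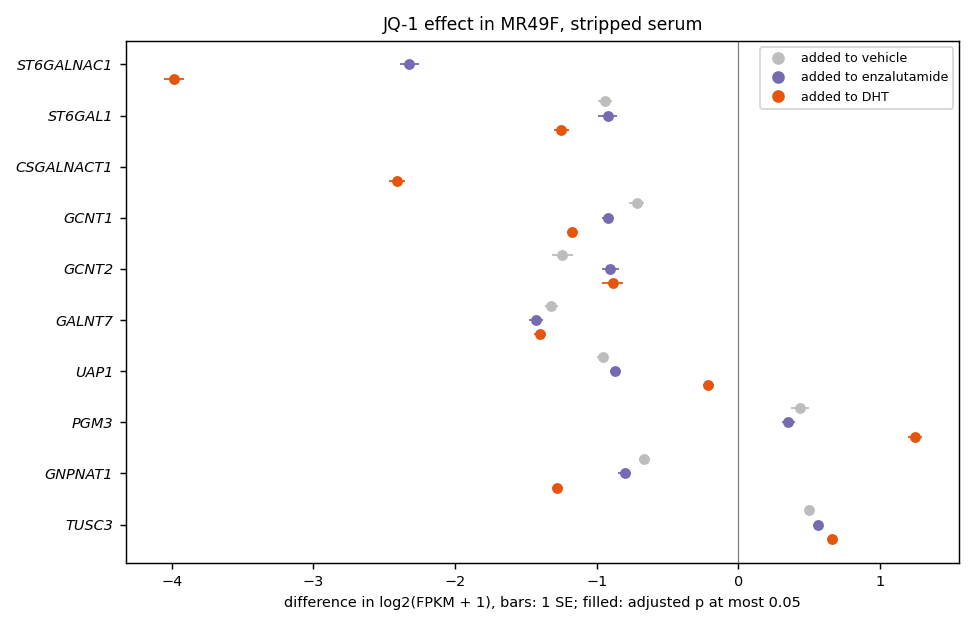
JQ-1 effect in log2(FPKM + 1) from limma when added to vehicle, enzalutamide or DHT, with bars of 1 SE and filled points for calls. TUSC3 and PGM3 lie above 0 in all 3 settings, the other genes tested below it, and UAP1 with DHT is nearest to 0 at -0.21. Genes below the FPKM filter have no point.

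Under JQ-1, DHT raised all 8 genes tested by counts in edgeR (22.1% of 10847 genes called) and by FPKM (53.3% called). CSGALNACT1 and GCNT2 were not tested. UAP1 rose from 26.0, 25.7 and 27.9 FPKM with JQ-1 to the values above with DHT and JQ-1, 5.32-fold, against 3.12-fold without JQ-1. PGM3 rose 4.99-fold in FPKM under JQ-1 and 2.88-fold without it. GNPNAT1, the first enzyme of this trio, rose 1.29-fold under JQ-1 and 1.99-fold without it. ST6GALNAC1 rose with DHT under JQ-1 from 5 reads to 51, a ratio of 10.5 (exact 95% interval 4.22 to 33.7). It passed the filters only through the DHT and JQ-1 group, so only a rise could be called. ST6GAL1, GCNT1 and TUSC3 rose by 1.56, 1.25 and 0.46 on the log2 scale from counts. GALNT7 rose by 0.75 and was not called without the first DHT and JQ-1 replicate (adjusted p = 0.0689). With the DESeq2 Wald test neither GALNT7 nor GNPNAT1 was called (adjusted p = 0.0892 and 0.0698).

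The DHT by JQ-1 interaction was called for 3 of 10 genes by counts (12.3% of 11572 genes called) and for 9 of 10 by FPKM (48.0% called). UAP1 and PGM3 were positive in both, at 0.82 ± 0.16 and 0.81 ± 0.16 from counts (SE, adjusted p = 0.000261 and 0.000248 by edgeR) and at 0.75 and 0.81 from FPKM. For PGM3, however, the DHT effect without JQ-1 was 0.28 from counts and 1.40 from FPKM. Whether its stripped serum counts stand for its own transcripts was not tested, so its count term is not separate support. ST6GALNAC1 rose 134-fold in FPKM with DHT and 28.2-fold under JQ-1, from 0.319 and 0.0631 FPKM on average. Its interaction was -4.33 ± 1.08 from counts (adjusted p = 0.00456) and -3.67 from log2(FPKM + 1), and since vehicle and JQ-1 held 6 and 5 reads the sizes depend on the prior count and on the pseudocount. Its count call was lost without the first JQ-1 replicate (adjusted p = 0.135). GNPNAT1 was called by FPKM only, at -0.61 (adjusted p = 2.27e-06), against -0.19 from counts (adjusted p = 0.616). CSGALNACT1 (-2.25, adjusted p = 5.76e-10), GCNT1 (-0.45), ST6GAL1 (-0.31), GCNT2 (0.35) and TUSC3 (0.16) were also called by FPKM only, where counts gave -1.88, -0.26, -0.40, -1.11 and 0.27. CSGALNACT1 passed the FPKM filter only through the DHT group, its other 3 groups averaging 0.0587 to 0.232 FPKM. GALNT7 was called by neither, at -0.29 from counts and -0.08 from FPKM.

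**Figure D5:**
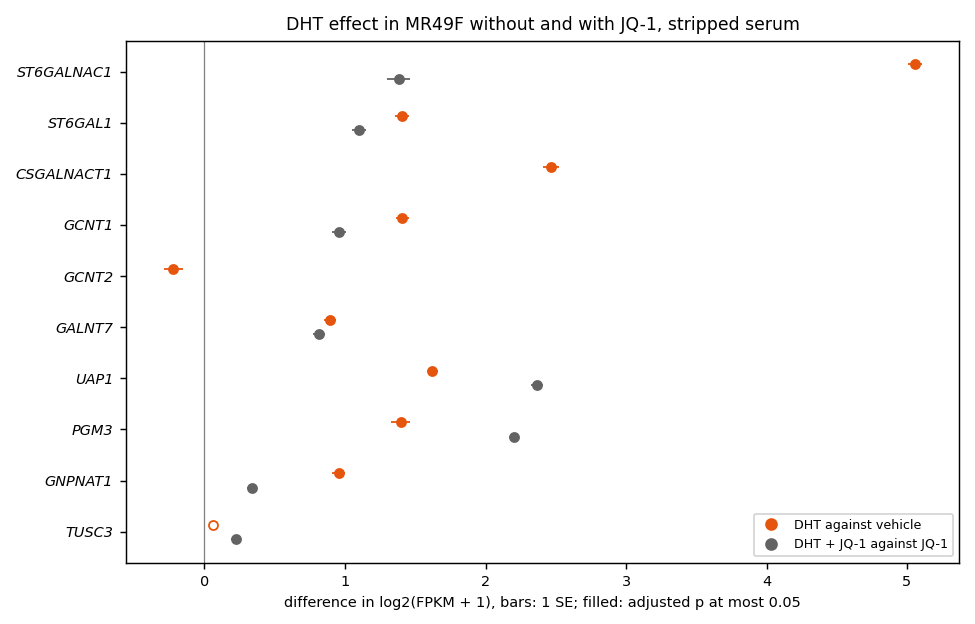
DHT effect in log2(FPKM + 1) from limma, against vehicle and, under JQ-1, against JQ-1, with bars of 1 SE and filled points for calls. UAP1 moves from 1.62 to 2.37 and PGM3 from 1.40 to 2.20, ST6GALNAC1 from 5.06 to 1.38, and CSGALNACT1 and GCNT2 were not tested under JQ-1.

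Enzalutamide under JQ-1 raised 1 of 7 genes by counts, UAP1, where 4.50% of 10708 genes were called, and 5 of 7 by FPKM (15.9% called). UAP1 went from 26.0, 25.7 and 27.9 FPKM to 41.0, 40.9 and 40.2 (counts, 0.90 ± 0.13, SE, adjusted p = 6.36e-09). By FPKM GALNT7, GCNT1, GNPNAT1 and PGM3 were also called, at 0.59, 0.47, 0.20 and 0.17, where counts gave 0.63, 0.37, 0.14 and -0.02. GALNT7 was called by counts only without the first JQ-1 replicate (0.90, adjusted p = 0.0160). The enzalutamide by JQ-1 interaction was called for ST6GALNAC1 alone of 9 genes by counts (-4.83 ± 1.23, adjusted p = 0.0453, 0.895% of 11625 genes called), and for ST6GALNAC1 and GCNT2 by FPKM (19.2% called). ST6GALNAC1 held 6, 5 and 3 reads with vehicle, JQ-1 and enzalutamide with JQ-1, against 157 with enzalutamide. It thus passed the filters only through the enzalutamide group, and the size of its interaction depends on the prior count and on the pseudocount. The count call was lost without any of 10 of the 12 samples, the exceptions being replicate 2 of vehicle and replicate 3 of enzalutamide.

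Of 158 other glycosylation genes in 8 lists, 45 were called with DHT by counts, 24 up and 21 down, of 106 tested, where 37.5% of all genes were called. By FPKM 44 rose and 45 fell of 115 (72.1% of all genes called). In the mucin-type O-glycan list none of 9 rose and 4 fell, and among other sialyltransferases none of 8 rose and 4 fell by counts, with 1 up and 5 down of 8 by FPKM, including ST3GAL1 at -2.48 ± 0.10 (SE, adjusted p = 4.25e-16) and ST3GAL5 at -1.88 (adjusted p = 9.60e-05). ST3GAL1 caps core 1 O-glycans with sialic acid and ST3GAL5 makes the ganglioside GM3. In the oligosaccharyltransferase complex, to which TUSC3 belongs, 5 of 10 rose and none fell by counts and 9 of 11 rose and none fell by FPKM, and of the other hexosamine and sialic acid supply genes 2 of 11 rose and 3 fell. With enzalutamide in V16D 26 of 131 rose and 34 fell (37.5% of all genes called), and in MR49F in full serum 4 of 131 rose and 2 fell (8.48%). With JQ-1 added to DHT 26 of 100 rose and 35 fell by counts (54.7%) and 41 and 54 of 115 by FPKM (78.8%). The largest changes from counts were ST8SIA4 at -3.025, MGAT4A at 2.405, DPAGT1 at -1.90 and C1GALT1 at 1.82 (adjusted p at most 3.17e-05 by edgeR). DPAGT1 starts the N-glycan precursor.

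Over the 10 condition means, the genes most like each member in log2(FPKM + 1) among 10345 genes were PMM2 for GNPNAT1 (Pearson r = 0.996), NELL2 for TUSC3 (0.995), IQCB1 for GALNT7 (0.989), TEX264 for ST6GALNAC1 (0.969), CAMKK2 for GCNT1 (0.969), FDFT1 for PGM3 (0.968), TSPAN1 for GCNT2 (0.967), PRPS1 for UAP1 (0.966), PTPLAD1 for ST6GAL1 (0.951) and ARHGAP1 for CSGALNACT1 (0.949). Next in likeness were ACSM3 and TIMM22 for GNPNAT1, ATP6V1D and EPG5 for TUSC3, TACC2 and SYTL1 for GALNT7, CDYL2 and SGK223 for ST6GALNAC1, PPAPDC2 and ATP8B2 for GCNT1, FZD8 and ZNF812 for PGM3, SEPT5 and RAB27A for GCNT2, SORD and ENDOD1 for UAP1, FADS2 and ANK3 for ST6GAL1, and NR4A1 and TMEM87B for CSGALNACT1, with r from 0.914 (ATP8B2) to 0.994 (ACSM3). These correlations are descriptions over 10 means from 2 experiments and share libraries. CSGALNACT1 (chr8:19261672-19615540) and TUSC3 (chr8:15274724-15624158) are the members whose positions on GRCh37 were not given above. UAP1 was the most abundant member in 9 of 10 conditions, and TUSC3 was above it with JQ-1 alone, at 35.7 against 26.5 FPKM on average.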

How the data were processed

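RNA-seq of 30 samples was analysed. The authors mapped reads to GRCh37 (hg19) with TopHat2 2.0.9 and deposited unnormalized read counts per gene from HTSeq. The authors also deposited FPKM per transcript from Cufflinks 2.1.1, summed here by gene symbol. The quasi-likelihood test of edgeR 4.0.16 (R 4.3.3, TMM, filterByExpr defaults of 10 reads and 15 in total) was run on counts, and log2(FPKM + 1) with limma 3.58.1 for genes of at least 1 FPKM in 3 samples, which was the main test for the serum interaction. Only the compared groups entered a fit. The SE beside an edgeR value is the absolute log2 fold change over the square root of its quasi-likelihood F statistic. It is approximate and may fall below counting error. DESeq2 1.42.0 size factors and Wald test, no filter, a replicate block, a pseudocount of 0.1, a two-group test after removing the 50% of genes with the lowest variance, and leaving out each sample were alternatives. The study calls the replicates biological, each from pooled wells of a line, and whether they were separate cultures was not given in the sources used here, so p-values measure the spread between these samples, which may be technical. The members and gene lists were chosen with earlier results of these data known. Other genes were named by a fixed rule, at most 4 called list genes per comparison with the largest change at 5 CPM or more, and the 3 most correlated genes per member among those of at least 5 FPKM in a condition mean. Scripts were tested on simulated data. A withheld item is not reported here.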

Additional observations from a re-analysis of the deposited data

Results flagged for a closer look

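Enzalutamide responses differed between the cell lines in full serum for ST6GALNAC1 (difference in log2 fold change 2.93), UAP1 (0.77), GALNT7 (0.545) and GCNT1 (0.404), each by an interaction term in edgeR. The DHT by JQ-1 term was called in edgeR for ST6GALNAC1 (-4.33), UAP1 (0.821) and PGM3 (0.812), and the enzalutamide by JQ-1 term for ST6GALNAC1 (-4.83). The -4.83 call was lost in 11 of 17 alternative fits, and the -4.33 call in 1 of 17, without the first JQ-1 replicate. Both rest on groups of few reads, and the PGM3 count term is not separate support. Between stripped and full serum the MR49F response to enzalutamide differed on the log2(FPKM + 1) scale for ST6GALNAC1 (3.62), CSGALNACT1 (1.1, under 1 FPKM in stripped serum), GCNT1 (1.03), UAP1 (1.01), GALNT7 (0.856), GNPNAT1 (0.501), ST6GAL1 (0.443), PGM3 (0.435) and TUSC3 (-0.152), by an interaction term in limma. The TUSC3 call was lost in 9 of 16 alternative fits, and neither TUSC3 nor PGM3 was called from counts.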

How the results depend on the processing

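Stripped serum counts rest on few reads, so small changes of CSGALNACT1, GCNT2 and ST6GALNAC1 were not detectable at this depth. With the two-group test after a variance filter, 3 members in place of 6 were called for enzalutamide in MR49F in full serum, 0 in place of 4 for enzalutamide in stripped serum, 3 in place of 6 for DHT against enzalutamide, 4 in place of 8 for DHT under JQ-1 and 0 in place of 1 for enzalutamide under JQ-1. Every member that lost its call there had passed the variance filter and missed the threshold in the two-group test. The adjusted p ran from 0.0511 (ST6GALNAC1, DHT under JQ-1) to 0.326 (GALNT7, enzalutamide in MR49F in full serum). The cause was not tested further. With limma on log2(FPKM + 1), 5 in place of 1 were called for enzalutamide under JQ-1, 9 in place of 3 for the DHT by JQ-1 interaction and 2 in place of 1 for the enzalutamide by JQ-1 interaction. The last was 0 with the DESeq2 Wald test, in which ST6GALNAC1 had no adjusted p. On the FPKM scale PGM3 turned to 0.25 for enzalutamide in stripped serum and 0.17 for enzalutamide under JQ-1, and GCNT2 to -0.22 for DHT and 0.35 for the DHT by JQ-1 interaction, and the cause was not tested. Leaving out 1 sample gave 8 to 9 members called for enzalutamide in V16D, 4 to 9 in MR49F in full serum, 8 to 9 between lines, 4 for the cell line interaction, 3 to 4 for enzalutamide in stripped serum, 7 to 8 for DHT, 6 to 7 for DHT against enzalutamide, 7 to 8 for JQ-1, 7 to 8 for JQ-1 added to enzalutamide, 9 to 10 for JQ-1 added to DHT, 7 to 8 for DHT under JQ-1, 1 to 2 for enzalutamide under JQ-1, 2 to 3 for the DHT by JQ-1 interaction, 0 to 1 for the enzalutamide by JQ-1 interaction and 7 to 9 for the serum interaction. Same-numbered replicates did not deviate together (mean correlations -0.036 in V16D, 0.058 in MR49F in full serum and 0.013 in stripped serum), and a replicate block gave 7 members for enzalutamide in MR49F in full serum, 8 between lines and 8 for the serum interaction, with no other count of members changed. DESeq2 size factors changed no member's call. The DESeq2 Wald test gained 1, GNPNAT1 for enzalutamide in MR49F in full serum (adjusted p = 0.0497). Beside ST6GALNAC1 above, it lost PGM3 for enzalutamide in V16D (0.0515), GCNT2 between lines (0.154), GCNT1 for enzalutamide in stripped serum (0.0687), GNPNAT1 for DHT against enzalutamide (0.0562), ST6GAL1 and GCNT1 for JQ-1 (0.181 and 0.0738), and GALNT7 and GNPNAT1 for DHT under JQ-1 (0.0892 and 0.0698).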
